A study of Mus musculus with 5 samples.

Results

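The nuclear-encoded subunits of the respiratory chain were examined in germinal centre light zone B cells of mouse spleen. Genes were taken by name, from Ndufa, Ndufb, Ndufc, Ndufs or Ndufv followed by a digit, Sdha to Sdhd, Uqcr, Cox4 to Cox8, and Atp5, leaving out names that contain ps or Rik. The rule found 85 of the 23234 genes in the deposited table. Of these, 82 belong to complexes I to V by their known roles: 35 to complex I, 4 to complex II, 8 to complex III, 20 to complex IV and 15 to complex V (ATP synthase). The remaining 3 share only the name: Atp5s and Atp5sl, of which the second is known as a complex I assembly factor, and Cox4nb, a component of the endoplasmic reticulum membrane complex. The rule leaves out Cyc1 and Ndufab1, which are also subunits, and the transcripts encoded in mitochondrial DNA were not analysed here.

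The respiratory chain of the inner mitochondrial membrane passes electrons from NADH through complex I, or from succinate through complex II, to ubiquinone, on through complex III and cytochrome c, and at complex IV to oxygen. Complexes I, III and IV pump protons, and ATP synthase uses the returning protons to make ATP. Complexes I and III are also known sources of mitochondrial superoxide, and germinal centre B cells are known to use oxidative phosphorylation.

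The cells of both groups began as donor naive B cells with a tamoxifen-activated Cre, ERT2cre(KI/+), the immunoglobulin knock-in B1-8hi(KI/+), which binds the hapten NP, and the allotype CD45.1/2. In the 2 libraries labelled Csk(f/f) the donor cells were Csk(fl/fl). In the 3 libraries labelled Csk(+/+) they were wild type at Csk, whose product restrains Src family kinases by phosphorylating their tail. Hosts were C57BL/6J mice, whose own B cells remained, given NP-CGG in alum on day 0 and tamoxifen on days 8 and 9, so the drug and the recombinase were shared by both groups. NP-binding donor light zone cells were sorted on day 11, with RNA from about 10000 cells for a library. The promoter or locus that drives ERT2cre, and whether cells were pooled across hosts, are not given in the sources used here. The series title names B cell receptor signalling, reactive oxygen species and selection, and the comparison asks how expression of the subunit genes differs between the Csk genotypes.

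Values were FPKM, fragments scaled to transcript length and library depth. Levels are set side by side between genes only approximately, since the annotation behind the values is not given in the sources used here. Depth was estimated from what a single fragment is worth in the lowest FPKM values, at 24.97 and 10.3 M fragments in Csk(f/f) replicates 1 and 2, against 16.9, 20.8 and 12.5 M fragments in Csk(+/+) replicates 1 to 3. Csk itself was at 453 and 476 FPKM under the Csk(f/f) label, against 378, 436 and 415 FPKM under the Csk(+/+) label. The targeted gene was thus not lower in the Csk(f/f) libraries, and a value over the whole gene cannot show the loss of floxed exons, so the genotype rests on the labels. The 5 B cell markers were high in all 5 libraries, with a summed level of 4019 and 3760 FPKM in Csk(f/f) and 2864, 3346 and 4018 FPKM in Csk(+/+). Of 6 T cell markers, 5 were matched and their summed level was between 0.00344 and 0.602 FPKM. The summed level of the 5 light zone markers was 918 and 897 FPKM in Csk(f/f), against 800.1, 766 and 774 FPKM in Csk(+/+). Cd83 made up most of that sum, with 515 and 487 FPKM in Csk(f/f), against 379, 403 and 388 FPKM in Csk(+/+), while Cd86 and Bcl2a1a had lower means in Csk(f/f), at log2 fold changes of -0.34 and -0.32. That of the 6 dark zone markers was 283 and 269 FPKM in Csk(f/f), against 314, 319.9 and 363 FPKM in Csk(+/+). Among them Cxcr4 was not lower, with 65.2 and 62.8 FPKM in Csk(f/f), against 63.5, 61.5 and 58.6 FPKM in Csk(+/+). The other dark zone markers, all genes of cell division, had lower means in Csk(f/f). The 6 matched germinal centre markers summed to 811 and 830.3 FPKM in Csk(f/f), against 789, 807 and 829.7 FPKM in Csk(+/+). Plasma cell markers summed to 130.3 and 119.6 FPKM in Csk(f/f), against 93.1, 102 and 101 FPKM in Csk(+/+), nearly all of it from Xbp1 and Irf4, which are not confined to plasma cells. Prdm1, Sdc1 and Tnfrsf17 stayed between 0 and 0.808 FPKM. Erythroid genes varied by library, at 380.3 and 100.4 FPKM in Csk(f/f), against 140.3, 784 and 398 FPKM in Csk(+/+). Across the 5 libraries neutrophil markers summed to between 0 and 2.65 FPKM, platelet markers to between 0.474 and 1.89 FPKM and muscle markers to between 74.6 and 83.9 FPKM. In bulk RNA, fewer cells of a type and less RNA per cell cannot be told apart.

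Promoter sequence was available from RefSeq (GRCm38.p6) for 69 of the 85 genes, in 75 windows that run from 250 bases before to 50 bases after an annotated start. Nuclear respiratory factor 1 (NRF1), GABP of the ETS family, and YY1 are known regulators of subunit genes. The NRF1 motif, searched as the letters in capitals in the sequences printed here, reads the same on both strands. It was present in 5 of the 75 windows (6.67%), against 0.971% of all 32851 windows. The ETS motif CCGGAAG was present on either strand in 21.3% of the windows of these genes, against 8.86% of all windows. The YY1 motif AAGATGGC was present in 16.0%, against 2.75% of all windows, and CCAAT in 42.7%, against 37.4%. No motif's letters contain those of another. The match is one of letters, and base composition was not equalised. Of the 5 genes with the NRF1 letters, Uqcrc1 holds them after its start. The other 4 hold them before it, and their last 180 bases before the start are printed here, with the motif in capitals, together with those of Ndufa5 and Cox7b, the pair with the lowest p among all members, which hold no such match:
Ndufa11 promoter, chr17:56717582-56717761 (+ strand): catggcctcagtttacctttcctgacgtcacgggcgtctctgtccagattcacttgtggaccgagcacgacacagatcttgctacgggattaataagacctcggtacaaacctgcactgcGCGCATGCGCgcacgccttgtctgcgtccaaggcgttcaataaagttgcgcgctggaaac
Atp5g2 promoter, chr15:102671048-102671227 (- strand): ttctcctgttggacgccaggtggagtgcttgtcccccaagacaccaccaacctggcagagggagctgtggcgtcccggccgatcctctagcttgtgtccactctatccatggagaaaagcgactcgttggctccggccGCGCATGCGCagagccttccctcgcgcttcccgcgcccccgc
Atp5k promoter, chr5:108434400-108434579 (- strand): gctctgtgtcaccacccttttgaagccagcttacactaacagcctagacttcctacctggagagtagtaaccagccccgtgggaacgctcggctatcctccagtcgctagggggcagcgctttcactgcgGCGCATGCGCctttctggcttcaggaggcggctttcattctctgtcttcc
Cox6a1 promoter, chr5:115348959-115349138 (- strand): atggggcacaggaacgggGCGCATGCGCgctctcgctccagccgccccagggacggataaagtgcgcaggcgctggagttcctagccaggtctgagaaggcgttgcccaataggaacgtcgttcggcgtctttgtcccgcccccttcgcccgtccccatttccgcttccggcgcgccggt
Ndufa5 promoter, chr6:24527691-24527870 (- strand): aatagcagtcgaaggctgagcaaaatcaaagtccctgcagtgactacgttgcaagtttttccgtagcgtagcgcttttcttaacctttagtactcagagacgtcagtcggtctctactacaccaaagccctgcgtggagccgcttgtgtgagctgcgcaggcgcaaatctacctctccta
Cox7b promoter, chrX:106015520-106015699 (+ strand): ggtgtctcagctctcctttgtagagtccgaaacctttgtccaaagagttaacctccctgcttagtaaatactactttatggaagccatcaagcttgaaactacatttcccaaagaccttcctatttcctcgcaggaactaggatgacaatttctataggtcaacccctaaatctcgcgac

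The subunit transcripts were abundant, and the tissue-restricted forms were near 0. Of the 85 genes, 79 reached 1 FPKM in 2 or more libraries and were tested, and 61 of these averaged over 100 FPKM. The median of the gene means was 121 FPKM in complex I, 84.7 in complex II, 254 in complex III, 313 in complex IV and 377 in complex V. Cox4i1, the ubiquitous form of a regulatory subunit of cytochrome c oxidase, was the highest, with 1230 and 1024 FPKM in Csk(f/f), against 796, 866 and 1387 FPKM in Csk(+/+). The 6 that were not tested were Cox4i2, Cox6a2, Cox7b2, Cox8b, Cox8c and Ndufa4l2, all of them forms known from other tissues or from hypoxia. Cox7b2, Cox8b and Cox8c were listed at 0 in every library, and the highest value among the other 3 was 0.419 FPKM, for Cox6a2 in Csk(f/f) replicate 2. The lowest tested gene was Atp5s, with 1.36 and 1.72 FPKM in Csk(f/f), against 3.89, 1.76 and 1.69 FPKM in Csk(+/+).

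No subunit passed the test between genotypes. In limma on log2(FPKM + 1), with p adjusted over the 10242 genes tested, 0 of the 79 members had an adjusted p under 0.05, where 0.0781% of all genes did. At an unadjusted p under 0.05, 0 members were higher in Csk(f/f), where 8.07% of all genes were, and 5 were lower, where 13.6% of all genes were. The median log2 fold change of Csk(f/f) over Csk(+/+) was -0.01 over the 79 members, with 38 of them positive, and -0.01 over all genes tested. Both Csk(f/f) libraries were above all 3 Csk(+/+) libraries in 3 members (Ndufa3, Sdhc and Atp5sl), a pattern met by 20.7% of all genes. They were below all 3 in 7 members (Ndufa5, Ndufs1, Ndufs4, Uqcrb, Cox7b, Cox6c and Atp5j), a pattern met by 24.5% of all genes. The members' shares were thus below the shares over all genes in both directions. The 95% confidence interval of the fold change lay within a 2-fold difference either way for 76 of the 79 members, and within 1.5-fold for 43. For 64 members the difference between the group means was smaller than the SD of the 3 Csk(+/+) libraries. That SD is widened by Csk(+/+) replicate 3, which was above both other Csk(+/+) libraries in 71 members. It was the highest of all 5 libraries in 62 members, which therefore could not be higher in Csk(f/f) without overlap. The share of all genes that matches the 64 is not given here. The design text calls the libraries biological replicates, and the p-values measure the spread among these 5.

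**Figure D1:**
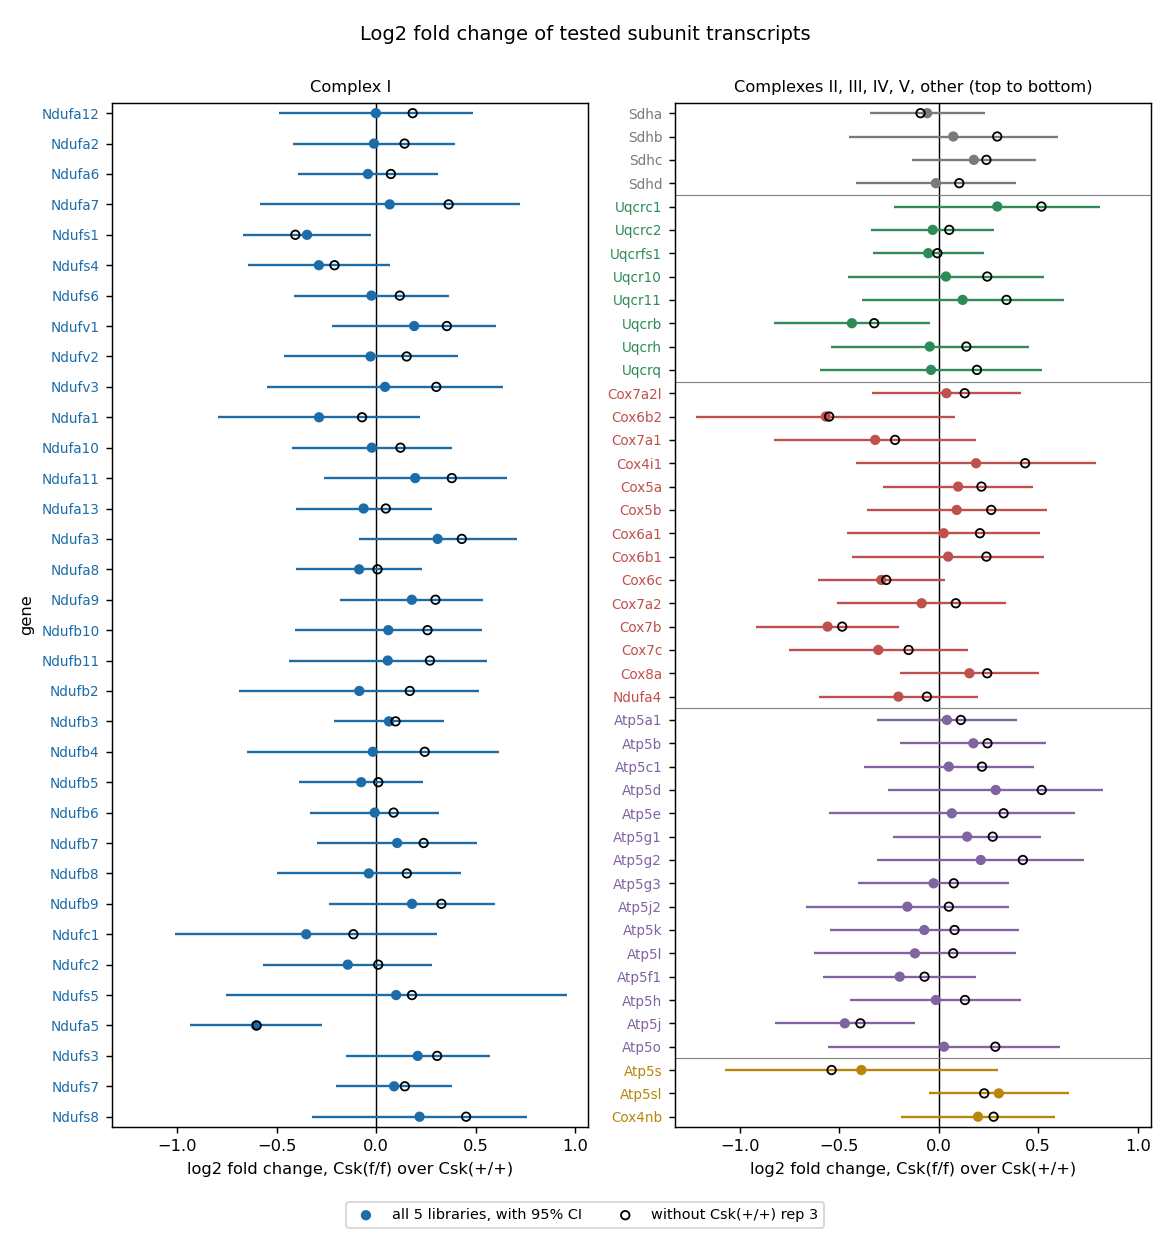
Log2 fold change, Csk(f/f) over Csk(+/+), of 78 of the 79 tested genes on the horizontal axis, with genes grouped by complex down the page. Filled points with bars give the limma estimate from all 5 libraries and its 95% confidence interval, and open circles the estimate without Csk(+/+) replicate 3; the open circles lie to the right of most filled points, and the filled points range from -0.60 for Ndufa5 to 0.31 for Ndufa3.

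What varied most among these genes was the library. Csk(+/+) replicate 3 held the highest value of the 5 libraries in 62 of the 79 members, against 19.0% of all genes tested, and it was above both other Csk(+/+) libraries in 71. The summed FPKM of the 85 genes was 19510 and 17330 in Csk(f/f), against 16230, 15890 and 22580 in Csk(+/+). Csk(+/+) replicate 3 is the top of that order and replicates 1 and 2 the bottom, with both Csk(f/f) libraries between them, so the groups overlap. As a share of all FPKM in the library, the sum was 2.72% and 2.56% in Csk(f/f), against 2.57%, 2.49% and 2.95% in Csk(+/+). The median member was 1.35 times as high in Csk(+/+) replicate 3 as in the mean of Csk(+/+) replicates 1 and 2, while the median over all genes was 0.893 times. Within Csk(f/f), replicate 1 was above replicate 2 in 66 of the 79 members, against 49.0% of all genes tested.

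**Figure D2:**
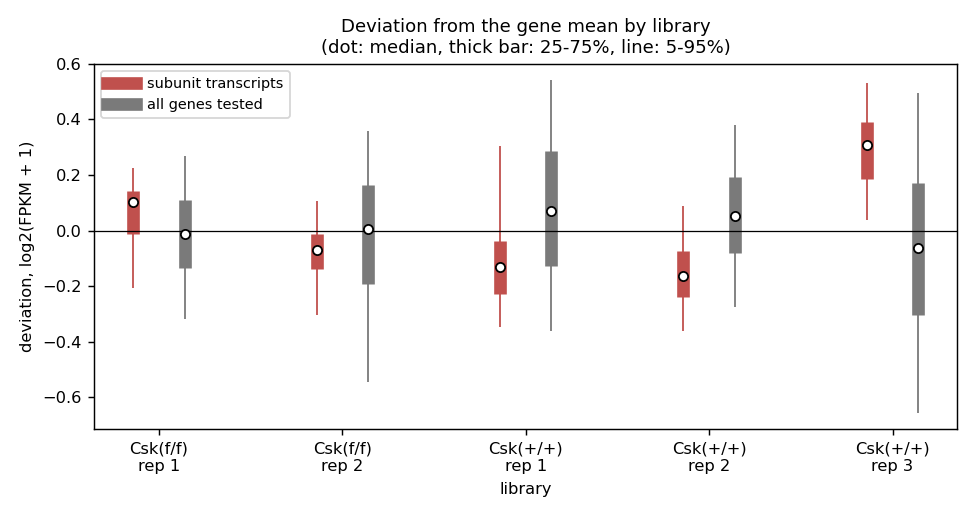
Deviation of each library from the gene's mean (the average of both group means) in log2(FPKM + 1), for the 79 subunit transcripts (red) and all 10242 genes tested (grey). Dots are medians, thick bars span the central 50% of genes and lines the central 90%; the subunit median is 0.10 and -0.07 in Csk(f/f) replicates 1 and 2, and -0.13, -0.16 and 0.31 in Csk(+/+) replicates 1 to 3.

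Csk(+/+) replicate 3 had the highest median deviation in each complex. The median deviation in Csk(+/+) replicate 3 was 0.30 in complex I, 0.14 in complex II, 0.39 in complex III, 0.36 in complex IV and 0.32 in complex V, on the log2 scale. All 8 complex III genes, 14 of 15 in complex V and 27 of 35 in complex I were highest there, with 11 of the 14 tested in complex IV and 2 of 4 in complex II, where the median deviation of Csk(f/f) replicate 1 was also 0.14. Short transcripts as a whole leaned the same way by less: the 1864 tested genes with a transcript under 1500 nt had a median deviation of 0.13 in that library, and the members' transcripts had a median length of 838 nt, against 2840 nt over all genes. Genes above 0 numbered 14089 and 13422 in Csk(f/f), against 14981, 14703 and 13291 in Csk(+/+). The summed level of 8 matched macrophage markers was 24.6 FPKM in both Csk(f/f) libraries, against 16.9, 21.5 and 12.2 FPKM in Csk(+/+). Cd68 and Lyz2 made up nearly all of it, the other markers stayed between 0 and 0.538 FPKM, and Mertk was listed at 0 in every library. Csk(+/+) replicate 3 was the lowest library in both measures. The part of depth, transcript length or other cells in the library's difference was not tested.

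**Figure D3:**
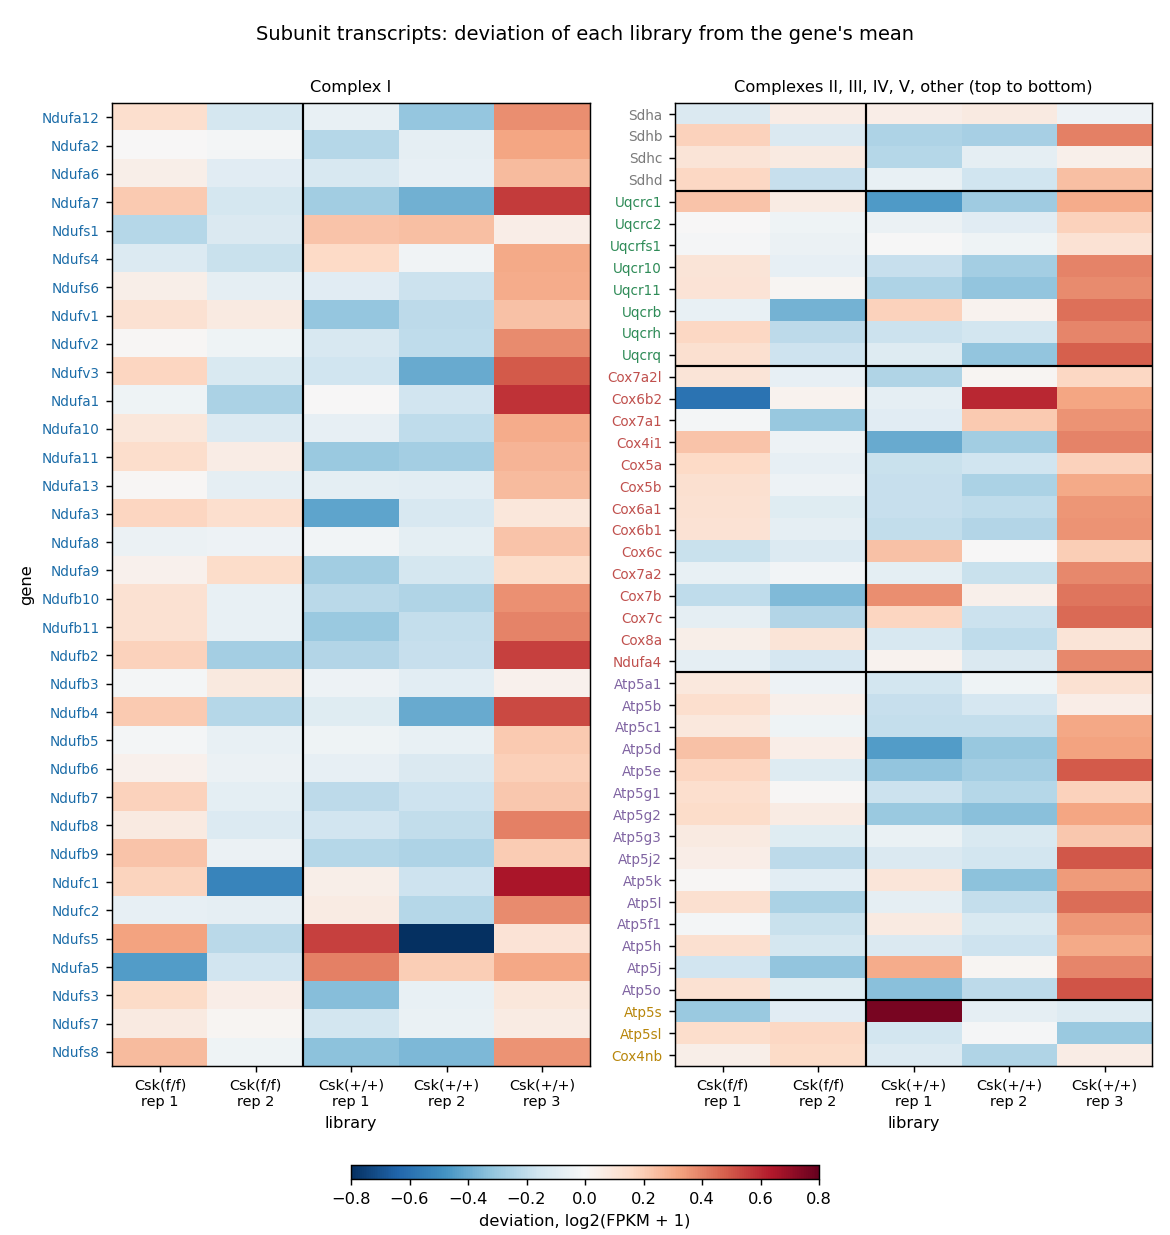
Deviation of each library (columns) from the mean of each of 78 tested genes (rows, grouped by complex), in log2(FPKM + 1), red above and blue below the mean. The right-hand column of each panel, Csk(+/+) replicate 3, is red for nearly all genes, while Ndufa5, Cox7b, Uqcrb, Atp5j and Ndufs1 are blue in both Csk(f/f) columns.

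Without Csk(+/+) replicate 3 the balance of directions changed. That library was above Csk(+/+) replicates 1 and 2 in 71 of the 79 members, so leaving it out had to raise their fold changes. In the fit without it, 62 of the 79 members had a positive log2 fold change, with a median of 0.15, against a median of -0.06 over all genes. At an unadjusted p under 0.05, 21 members were higher in Csk(f/f), where 13.3% of all genes were, and 5 were lower, where 21.4% were. By complex, the 21 were 10 of 35 in complex I, 1 of 4 in complex II, 2 of 8 in complex III, 3 of the 14 tested in complex IV and 5 of 15 in complex V. Past the adjusted threshold, which 4.05% of all genes passed in that fit, were Uqcrc1, at a log2 fold change of 0.52 ± 0.12 (SE; limma adjusted p = 0.0493), and Atp5d, at 0.52 ± 0.12 (SE; limma adjusted p = 0.0490). Both Csk(f/f) libraries lay above Csk(+/+) replicates 1 and 2 in 43 members, a pattern met by 27.96% of all genes. In 33 of these members both also lay below Csk(+/+) replicate 3, for which the share of all genes is not given here. Both Csk(f/f) libraries lay below Csk(+/+) replicates 1 and 2 in 8 members, a pattern met by 38.39% of all genes. With the GC trend of each library also subtracted, as described further on, the log2 fold changes were 0.28 for Uqcrc1 (limma adjusted p = 0.237) and 0.24 for Atp5d (limma adjusted p = 0.30). With all columns scaled to equal sums and that library left out, a setting added after the data were seen, 44 members were positive and the median was 0.02, against -0.18 over all genes. In that setting 6 members were higher at an unadjusted p under 0.05, where 5.21% of all genes were, and 8 were lower, where 30.4% were. The higher level in Csk(f/f) thus depends on which Csk(+/+) libraries are included and on the scaling. Without that library, the members' median was above the median over all genes with either scaling.

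In complex I, the peripheral arm oxidises NADH in its N module and reduces ubiquinone in its Q module, and the membrane arm, the P module, pumps protons. Summed over the 10 N module genes, the level was 1296 and 1152 FPKM in Csk(f/f), against 1092, 1051 and 1571 FPKM in Csk(+/+). Ndufv1, which binds the flavin that accepts electrons from NADH, had 119 and 115 FPKM in Csk(f/f), against 88.0, 94.3 and 128 FPKM in Csk(+/+). Its Csk(f/f) libraries lay between Csk(+/+) replicate 3 and the other 2, as did those of Ndufv2, an iron-sulfur subunit, with 72.7 and 70.5 FPKM in Csk(f/f), against 65.9, 62.6 and 94.2 FPKM in Csk(+/+). Ndufs1, the largest iron-sulfur subunit of the N module, took the other direction, with 23.1 and 25.1 FPKM in Csk(f/f), against 32.1, 32.4 and 28.4 FPKM in Csk(+/+). The groups did not overlap, and the log2 fold change was -0.35 ± 0.14 (SE; limma adjusted p = 0.213). As a share of the N module, however, Ndufs1 overlapped between groups, at 1.79% and 2.18% in Csk(f/f), against 2.94%, 3.08% and 1.81% in Csk(+/+). The other N module genes, all overlapping between groups but Ndufs4, averaged between 21.9 and 211 FPKM over the 5 libraries. Ndufs4, an accessory subunit whose loss causes a mitochondrial disease model in mice, had 19.6 and 18.8 FPKM in Csk(f/f), against 23.9, 20.9 and 26.5 FPKM in Csk(+/+). Its groups did not overlap and it missed an unadjusted p under 0.05. Ndufs1 differed from most members in being highest in Csk(+/+) replicate 2.

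In the Q module, Ndufa5 had the lowest log2 fold change of all members. Ndufa5, a supernumerary subunit, had 42.7 and 52.5 FPKM in Csk(f/f), against 77.7, 67.2 and 72.7 FPKM in Csk(+/+). Every Csk(f/f) value lay below every Csk(+/+) value, and the log2 fold change was -0.60 ± 0.14 (SE; limma adjusted p = 0.154). Its share of the summed FPKM of the 5 Q module genes, which takes out a level common to the library, was 6.12% and 8.18% in Csk(f/f), against 13.7%, 11.2% and 9.83% in Csk(+/+), also without overlap. Ndufs3, Ndufs7 and Ndufs8, core subunits of the module, overlapped between groups. Ndufs8 had 198 and 162 FPKM in Csk(f/f), against 132, 129 and 213 FPKM in Csk(+/+). For Ndufs3 the values were 119 and 111 FPKM in Csk(f/f), against 84.2, 102 and 114 FPKM in Csk(+/+). For Ndufs7 they were 154 and 148 FPKM in Csk(f/f), against 132, 141 and 153 FPKM in Csk(+/+). These 3 core subunits thus had higher means in Csk(f/f), with groups that overlapped, beside a lower mean of Ndufa5.

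Among the 20 P module genes, all supernumerary, log2 fold changes ran from -0.35 to 0.31 and 9 were positive. The highest was that of Ndufa3, a small subunit of the membrane arm, with 340.0 and 331 FPKM in Csk(f/f), against 225, 275 and 320.3 FPKM in Csk(+/+). Both Csk(f/f) libraries were above all Csk(+/+) libraries, with a log2 fold change of 0.31 ± 0.17 (SE; limma adjusted p = 0.312). Its share of the module was 12.1% and 13.4% in Csk(f/f), against 9.52%, 12.01% and 9.89% in Csk(+/+). Relative to its mean, the widest spread among Csk(+/+) libraries in the module was that of Ndufs5 (a coefficient of variation of 43.9%), with 59.1 and 40.4 FPKM in Csk(f/f), against 69.4, 26.5 and 51.0 FPKM in Csk(+/+). Its spread was chosen for mention after its values were seen. Ndufa11, with the NRF1 letters in its promoter, had 29.8 and 28.1 FPKM in Csk(f/f), against 21.8, 22.2 and 32.7 FPKM in Csk(+/+), so that both Csk(f/f) libraries lay between Csk(+/+) replicate 3 and the other Csk(+/+) libraries.

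Complex II, which oxidises succinate, showed no lower or higher member at an unadjusted p under 0.05. Sdha, the flavin-binding subunit, had 94.5 and 107 FPKM in Csk(f/f), against 106, 108 and 99.7 FPKM in Csk(+/+), a log2 fold change of -0.06 ± 0.12 (SE; limma adjusted p = 0.794) whose 95% interval was -0.35 to 0.23. Sdhb, the iron-sulfur subunit, had 241 and 196 FPKM in Csk(f/f), against 178, 176 and 281 FPKM in Csk(+/+). The membrane anchor Sdhc had 53.3 and 52.0 FPKM in Csk(f/f), against 42.1, 46.9 and 50.8 FPKM in Csk(+/+). Its groups did not overlap, by a margin smaller than the spread of the Csk(+/+) libraries, at a log2 fold change of 0.18 ± 0.13 (SE; limma adjusted p = 0.442). The other anchor, Sdhd, had 74.1 and 57.9 FPKM in Csk(f/f), against 63.1, 58.8 and 78.0 FPKM in Csk(+/+). Sdhb and Sdhd were highest in Csk(+/+) replicate 3, and Sdha in Csk(+/+) replicate 2.

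In complex III, the core proteins and the small subunits had their highest value in Csk(+/+) replicate 3 without exception. Uqcrc1, a core protein that faces the matrix, had 256 and 229 FPKM in Csk(f/f), against 159, 179 and 269 FPKM in Csk(+/+). The groups overlapped only through Csk(+/+) replicate 3, and the log2 fold change over all 5 libraries was 0.29 ± 0.22 (SE; limma adjusted p = 0.442), or 0.01 after the GC correction. Its share of the complex did not overlap, at 12.9% and 13.4% in Csk(f/f), against 9.74%, 11.4% and 11.3% in Csk(+/+). Its partner Uqcrc2 had 113 and 110.1 FPKM in Csk(f/f), against 109, 106 and 128 FPKM in Csk(+/+), and the Rieske iron-sulfur protein Uqcrfs1 had 99.7 and 97.1 FPKM in Csk(f/f), against 100.1, 97.6 and 109 FPKM in Csk(+/+). Uqcrb, a small subunit beside the ubiquinone site, had 100.3 and 80.3 FPKM in Csk(f/f), against 119, 107 and 142 FPKM in Csk(+/+). Its groups did not overlap, and the log2 fold change was -0.44 ± 0.17 (SE; limma adjusted p = 0.208). The share of Uqcrb in the complex was 5.06% and 4.69% in Csk(f/f), against 7.27%, 6.79% and 6.00% in Csk(+/+). The 4 remaining small subunits, Uqcrh (the hinge protein), Uqcrq, Uqcr10 and Uqcr11, overlapped between groups. Uqcrq had 382 and 312 FPKM in Csk(f/f), against 326, 281 and 489 FPKM in Csk(+/+), and Uqcr11 had 320.1 and 300.0 FPKM in Csk(f/f), against 250.1, 239 and 387 FPKM in Csk(+/+). Uqcr10 had 307 and 272 FPKM in Csk(f/f), against 251, 237 and 376 FPKM in Csk(+/+). The last 2 had both Csk(f/f) libraries between Csk(+/+) replicate 3 and the other Csk(+/+) libraries, while Uqcrh had 405 and 312 FPKM in Csk(f/f), against 319.8, 325 and 474 FPKM in Csk(+/+).

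In complex IV, whose catalytic core is encoded in mitochondrial DNA, Cox4i1 had a log2 fold change of 0.19 ± 0.26 (SE; limma adjusted p = 0.679). Cox5a and Cox5b, subunits on the matrix side, were also between the Csk(+/+) libraries: Cox5a had 303 and 259 FPKM in Csk(f/f), against 239.6, 243 and 308 FPKM in Csk(+/+). Cox5b had 451 and 401 FPKM in Csk(f/f), against 362, 346 and 508 FPKM in Csk(+/+). Cox7b, a small transmembrane subunit, had 51.0 and 45.8 FPKM in Csk(f/f), against 76.3, 60.6 and 79.4 FPKM in Csk(+/+). Its groups did not overlap, and the log2 fold change was -0.56 ± 0.16 (SE; limma adjusted p = 0.157). As a share of the 11 ubiquitous complex IV genes it was 1.10% and 1.09% in Csk(f/f), against 1.93%, 1.59% and 1.45% in Csk(+/+). Cox6c, another small subunit, had 286 and 301 FPKM in Csk(f/f), against 382, 324 and 371 FPKM in Csk(+/+), but as a share of those genes its groups overlapped. Ndufa4, named for complex I and now placed in complex IV, had 286 and 274 FPKM in Csk(f/f), against 307, 278 and 393 FPKM in Csk(+/+).

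The tissue-restricted isoforms of complex IV were a small part of their families. Cox6a1, with the NRF1 letters in its promoter, had 739.9 and 638 FPKM in Csk(f/f), against 599, 591 and 869.7 FPKM in Csk(+/+), and its muscle counterpart Cox6a2 was near 0. Cox8a had 482 and 502 FPKM in Csk(f/f), against 426, 405 and 500.2 FPKM in Csk(+/+), with the muscle form Cox8b and the testis form Cox8c at 0. Cox6b1 made up 99.3% ± 0.325 of the Cox6b sum in Csk(f/f) and 98.9% ± 0.435 in Csk(+/+) (SD, n = 2 and 3). The testis form Cox6b2 had 2.33 and 4.12 FPKM in Csk(f/f), against 3.79, 6.64 and 5.26 FPKM in Csk(+/+), overlapping groups with a log2 fold change of -0.57 ± 0.28 (SE; limma adjusted p = 0.272). Within the Cox7a family, Cox7a2l, a factor that joins complexes III and IV into supercomplexes, held 72.8% ± 1.92 in Csk(f/f) and 70.9% ± 3.08 in Csk(+/+) (SD, n = 2 and 3). Cox7a2, the ubiquitous subunit, held 26.4% ± 2.02 in Csk(f/f) and 28.1% ± 3.13 in Csk(+/+). Cox7a1, the heart and muscle form, held between 0.687% and 1.06% across the libraries. Of the 5 muscle markers, Acta1 had 78.4 and 83.6 FPKM in Csk(f/f), against 74.4, 82.6 and 79.98 FPKM in Csk(+/+), while Myh6 and Tnnt2 were listed at 0 in all 5 libraries.

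In ATP synthase, the F1 head makes ATP, the c ring turns in the membrane and the peripheral stalk holds the head still. The catalytic subunit Atp5b had 971 and 908 FPKM in Csk(f/f), against 779, 805 and 918 FPKM in Csk(+/+), and Atp5a1, its partner in the head, had 624 and 572 FPKM in Csk(f/f), against 533, 574 and 640.1 FPKM in Csk(+/+). Atp5c1, the rotating central shaft, had 300.1 and 276 FPKM in Csk(f/f), against 247.3, 247.5 and 351 FPKM in Csk(+/+). Atp5d, the delta subunit at the foot of the shaft, had 443 and 391 FPKM in Csk(f/f), against 276, 305 and 470.1 FPKM in Csk(+/+). The groups overlapped only through Csk(+/+) replicate 3, and over all 5 libraries the log2 fold change was 0.29 ± 0.23 (SE; limma adjusted p = 0.473), or -0.04 after the GC correction. Atp5e, the epsilon subunit, had the widest difference among Csk(+/+) libraries in the head, with 1086 and 898 FPKM in Csk(f/f), against 777, 798 and 1354 FPKM in Csk(+/+). All 5 F1 genes had a positive log2 fold change, between 0.04 and 0.29, and none of these passed the test.

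The c subunit has 3 genes, Atp5g1, Atp5g2 and Atp5g3, known to encode the same mature protein. Atp5g2 held 52.3% ± 0.898 of their sum in Csk(f/f) and 48.9% ± 3.11 in Csk(+/+) (SD, n = 2 and 3). Atp5g3 held 35.1% ± 0.897 in Csk(f/f) and 38.7% ± 2.66 in Csk(+/+). Atp5g1 held 12.6% in both Csk(f/f) libraries, against 12.3% ± 0.449 in Csk(+/+). For Atp5g2 the single libraries were at 51.7% and 53.0% in Csk(f/f), against 46.9%, 47.4% and 52.5% in Csk(+/+), so the shares overlapped through Csk(+/+) replicate 3. In level, Atp5g2, whose promoter holds the NRF1 letters, had 847 and 799 FPKM in Csk(f/f), against 622, 605 and 953 FPKM in Csk(+/+).

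In the peripheral stalk, Atp5j, also called coupling factor 6, had 125.5 and 112 FPKM in Csk(f/f), against 172, 141 and 184 FPKM in Csk(+/+). Its groups did not overlap, and the log2 fold change was -0.47 ± 0.15 (SE; limma adjusted p = 0.176). Its share of the stalk was 11.5% and 12.02% in Csk(f/f), against 17.6%, 15.1% and 13.5% in Csk(+/+). Atp5o, the subunit that ties the stalk to the head, had 379.6 and 326 FPKM in Csk(f/f), against 276, 302 and 494 FPKM in Csk(+/+), and Atp5f1, the b subunit, had 166 and 149 FPKM in Csk(f/f), against 177, 154 and 214 FPKM in Csk(+/+). Both overlapped between groups. Of the 4 stalk genes only Atp5j had non-overlapping groups. The 3 membrane subunits Atp5j2, Atp5k and Atp5l, which shape the dimer of the enzyme, overlapped as well, with log2 fold changes between -0.16 and -0.07. Atp5k, with the NRF1 letters in its promoter, had 402 and 377 FPKM in Csk(f/f), against 426, 318 and 506 FPKM in Csk(+/+).

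The 3 genes that share only the name did not follow the library order of the subunits, and none was highest in Csk(+/+) replicate 3. Atp5sl had 23.3 and 23.7 FPKM in Csk(f/f), against 18.9, 21.0 and 16.9 FPKM in Csk(+/+), without overlap, and was lowest in Csk(+/+) replicate 3. Cox4nb had 14.2 and 15.4 FPKM in Csk(f/f), against 12.6, 11.5 and 14.3 FPKM in Csk(+/+), which overlap.

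**Figure D4:**
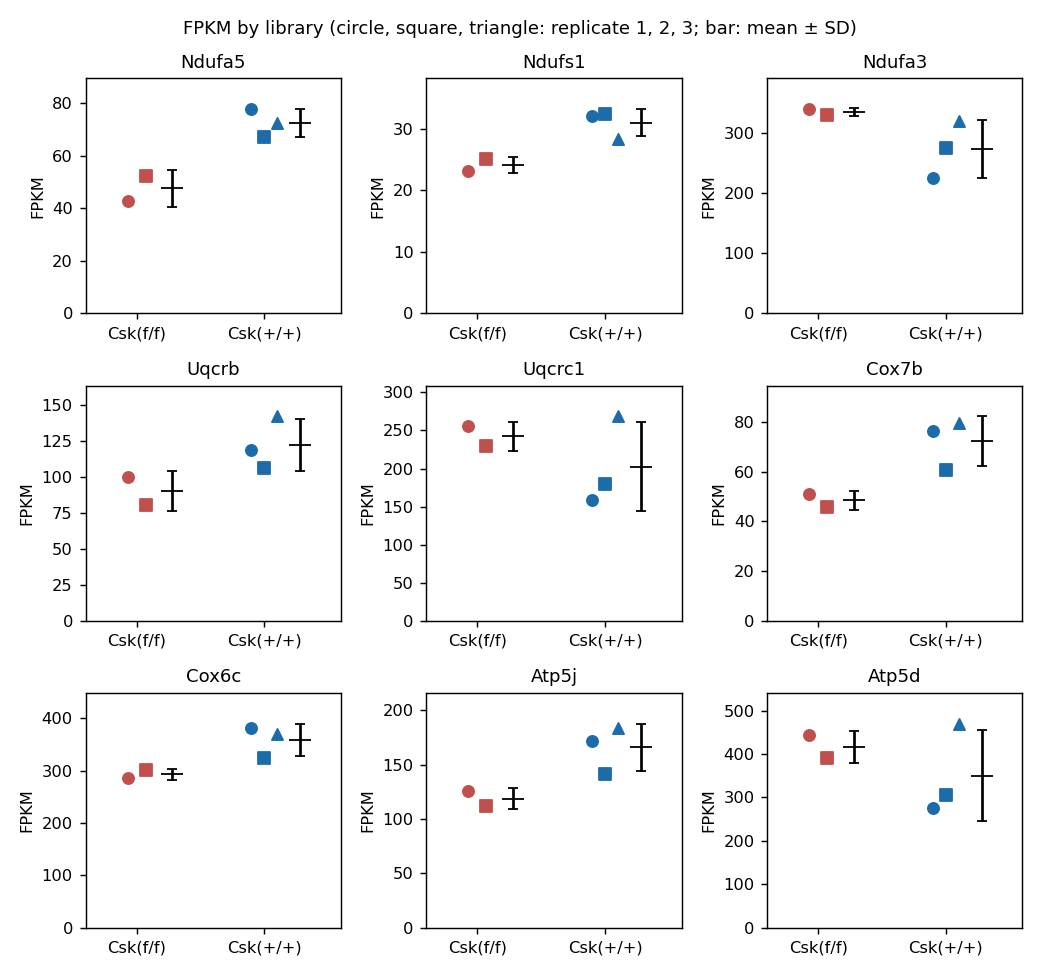
FPKM (vertical axis, from 0) of 9 members in each library, with Csk(f/f) in red and Csk(+/+) in blue; circle, square and triangle mark replicates 1, 2 and 3, and the bar is the group mean ± SD. Ndufa5, Ndufs1, Uqcrb, Cox7b, Cox6c and Atp5j are lower in both Csk(f/f) libraries than in all Csk(+/+) libraries, Ndufa3 is higher, and Uqcrc1 and Atp5d overlap through Csk(+/+) replicate 3.

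Fold changes over all genes followed transcript GC content, and those of the members did so in part. Spearman's rho between the log2 fold change and GC content was 0.73 across 10118 genes and 0.46 across the 79 members, which share their libraries and are not independent. For the 8 tested members under 45% GC the median was -0.25 on the log2 scale and 1 was positive, against -0.43 over all genes of that range. The 50 members from 45% to 55% had a median of -0.02 and the 21 members at 55% or more a median of 0.11, against -0.01 and 0.29 over all genes of those ranges. Cox7b, at 42.0% GC, Uqcrb, at 42.2%, and Ndufs1, at 45.1%, were among the members with the lowest GC, while Ndufa5, at 50.3%, and Atp5j, at 56.0%, were not.

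After the GC trend of each library was subtracted, the differences of Ndufa5 and Atp5j were no smaller and those of the other 3 were near 0. The log2 fold change was then -0.61 for Ndufa5 (limma adjusted p = 0.401) and -0.72 for Atp5j (limma adjusted p = 0.455). It was -0.13 for Cox7b, -0.01 for Uqcrb and -0.05 for Ndufs1. In that fit 1 member was higher in Csk(f/f) at an unadjusted p under 0.05, Ndufb3, where 4.04% of all genes were, and 4 were lower, Ndufa5, Atp5j, Cox6b2 and Cox7a1, where 4.8% were. With Csk(+/+) replicate 3 also left out, 15 members were higher, where 9.49% of all genes were, and 3 were lower, where 9.52% were, and none passed the adjusted threshold by limma. The correction itself tilted the members, since their rho against GC content was then -0.63, so the corrected values of members at the ends of the GC range are not free of the trend.

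**Figure D5:**
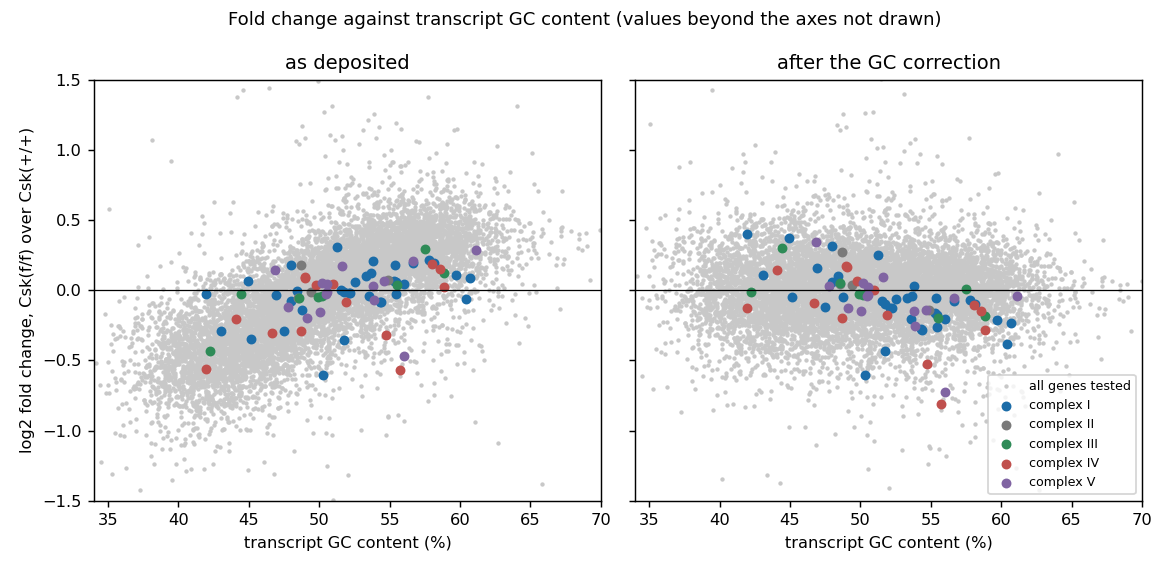
Log2 fold change, Csk(f/f) over Csk(+/+), against transcript GC content in percent, for all genes tested (grey) and for the subunit genes coloured by complex, as deposited on the left and after the GC correction on the right; values beyond the axes are not drawn. The grey cloud climbs with GC content on the left (rho 0.73) and is level on the right, where Ndufa5, Atp5j and Cox6b2 remain low.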

How the data were processed

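The authors' deposited table held FPKM per gene, with 1 column for each of the 5 libraries, made with TopHat2 2.0.8 and Cufflinks 2.1.1 on mm9, per the submitters' processing notes. The annotation, and whether libraries were scaled to each other, are not given in the sources used here; 1 line that repeated the header was left out. Genes that reached 1 FPKM in 2 or more libraries were tested on log2(FPKM + 1), Csk(f/f) minus Csk(+/+), with limma 3.58.1 in R 4.3.3, a trended prior and Benjamini-Hochberg adjustment over the 10242 genes. Fold changes are on that scale, which understates low genes. An adjusted p under 0.05 passed. The fit was tested on simulated data with independent noise for each gene and library. That simulation held no shift common to a library, so it does not cover the shift of Csk(+/+) replicate 3.

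The members, gene lists and tests were chosen with earlier results of these data known. Members given with a fold change were those past the threshold, the highest and lowest of each complex among members averaging at least 5 FPKM in a group, and up to 4 higher and 4 lower per complex with the smallest unadjusted p under 0.05. Fixed core subunits and isoform families are given by level, and up to 3 genes per further list. The values of 1 member are not reported here, though it enters the counts and sums. Lists of mitochondrially encoded genes matched no name. Markers of plasma cells, neutrophils, erythroid cells, platelets and muscle were also summed.

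Transcript GC content and length came from GENCODE vM21 (GRCm38) for all 85 genes; since the files use mm9, no coordinates of the files are given. The GC correction subtracted each library's lowess trend (span 0.3). Alternatives were other pseudocounts, filters and scalings, GC and length corrections, limma without a trend, fits with the replicate number as a block and fits that leave out each library in turn. Depth came from the lowest FPKM steps, an estimate that limits precision for low genes.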

Additional observations from a re-analysis of the deposited data

How the results depend on the processing

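Over 21 alternatives, the 12 members given with a fold change kept their direction in 237 of 252 values. In each alternative the median over the members moved by less than the spread between libraries, 0.226 on the log2 scale. That spread takes in the shift of Csk(+/+) replicate 3, so it is a wide measure and cannot show that the median was stable. Without that library the median went from -0.01 to 0.15, and the positive members from 38 to 62 of 79. Genes past the adjusted threshold numbered 8, then 5 with no filter, 15 with the length correction, 43 with the GC correction without Csk(+/+) replicate 3, and 5 to 411 leaving out each library in turn. Members past it numbered 0, and 0 to 2 leaving out each library. Members higher in Csk(f/f) at an unadjusted p under 0.05 numbered 0 (8.07% of all genes), then 1 with median-ratio rescaling (9.69%), 1 with the GC correction (4.04%), 1 with the length correction (12.9%), 5 with both (5.16%), 15 with the GC correction without Csk(+/+) replicate 3 (9.49%), and 0 to 21 leaving out each library (1.52% to 13.3%). Members lower numbered 5 (13.6% of all genes), then 8 with the length correction (13.1%), 3 without a trend in limma (14%), 3 with the GC correction without Csk(+/+) replicate 3 (9.52%), and 2 to 5 leaving out each library (3.66% to 21.4%).

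Whether the same replicate numbers pair the samples is not known here. Deviations of same-numbered libraries correlated at -0.13 and 0.11. The deviations of Csk(f/f) replicate 1 are the reverse of those of replicate 2, so these values cannot show or exclude a pairing. A fit with the replicate block leaves Csk(+/+) replicate 3 alone in its block. With the block, 492 genes passed, 18 members were higher (14.1% of all genes) and 6 lower (22.7%). With the block and the GC correction, 83 genes and 1 member passed, 15 members were higher (9.9%) and 3 lower (9.67%).

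Among the 12 members given with a fold change, directions turned for 4, none past the threshold where it turned. Other members turned as well: of all 79 tested, 38 were positive in the main fit and 28 with the GC correction. Sdha was at 0.0481 with the GC correction, 0.0357 with the GC and length corrections, 0.0775 with the block and the GC correction, and 0.0770 with the GC correction without Csk(+/+) replicate 3. Leaving out each library in turn it ran from -0.144 to 0.0292, the last without Csk(f/f) replicate 1. Cox4i1 was at -0.107 with the GC correction and -0.0321 with the length correction added. Atp5d was at -0.0387 with the GC correction. Uqcrb was at 0.0859 with the GC and length corrections, 0.112 with the block and the GC correction, and 0.117 with the GC correction without Csk(+/+) replicate 3. The cause was not tested.

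After seeing the data, 3 alternatives were added. With GC content from the longest transcript, 2 members were higher (4.89% of all genes), and Sdha was at 0.0162, Uqcrb at 0.0138, Cox4i1 at -0.113 and Atp5d at -0.0306. With equal column sums, 0 members were higher, where the share of all genes was 3.11% instead of 8.07%, and 6 were lower, where it was 11.1%. Equal column sums without Csk(+/+) replicate 3 moved the median of all genes to -0.18, gave 1521 genes and 7 members past the threshold, and 6 members higher (5.21% of all genes) and 8 lower (30.4%). Those 7 were Ndufa5, Ndufs1, Uqcrb, Cox7b and Atp5j, lower, and Uqcrc1 and Atp5d, higher.

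With 2 and 3 libraries of unequal estimated depth, and with no counts used here, differences under about the width of the intervals given were not detectable.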

Other observations

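Genes of the wider pathway, from lists chosen with earlier results of these data known, showed mixed directions and none passed the adjusted threshold in limma. Of 47 assembly factors, 29 were matched by name and 28 tested. At an unadjusted p under 0.05, 2 were higher in Csk(f/f), where 8.07% of all genes were, and 2 lower, where 13.6% were, and the median log2 fold change was 0.03, against -0.01 over all genes. Sco2, a copper chaperone of complex IV, had 46.9 and 45.3 FPKM in Csk(f/f), against 31.9, 35.5 and 32.6 FPKM in Csk(+/+), a log2 fold change of 0.46 ± 0.13 (SE; limma adjusted p = 0.157). Ecsit, a complex I assembly factor, had 24.1 and 25.5 FPKM in Csk(f/f), against 18.5, 18.1 and 20.1 FPKM in Csk(+/+) (limma adjusted p = 0.200). Tmem70, which assists assembly of ATP synthase, averaged 9.01 ± 0.435 FPKM in Csk(f/f) and 13.6 ± 1.54 FPKM in Csk(+/+) (SD, n = 2 and 3; limma adjusted p = 0.175). After the GC correction the log2 fold changes of Sco2, Ecsit and Tmem70 were 0.14, 0.14 and -0.19, where they had been 0.46, 0.38 and -0.54. These 3 were named for the smallest p of their list, and none overlapped between groups. Of all genes, 20.7% were higher and 24.5% lower without overlap. None of the 3 was highest in Csk(+/+) replicate 3, where 62 of the 79 members but only 19.0% of all genes were highest.

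Of the 21 electron carriers and entry points, 20 were tested, and at an unadjusted p under 0.05 there were 0 higher (8.07% of all genes) and 2 lower (13.6%). Etfa, a subunit of the electron transfer flavoprotein that feeds electrons from fatty acid oxidation to ubiquinone, had 32.5 and 30.3 FPKM in Csk(f/f), against 58.5, 44.6 and 50.8 FPKM in Csk(+/+). Its log2 fold change was -0.68 ± 0.15 (SE; limma adjusted p = 0.154), and -0.38 after the GC correction. Its partner Etfb averaged 153 FPKM in Csk(f/f) and 141 FPKM in Csk(+/+). Cytochrome c, Cycs, had 27.2 and 27.6 FPKM in Csk(f/f), against 37.0, 31.1 and 37.3 FPKM in Csk(+/+) (limma adjusted p = 0.221). The log2 fold change of Cycs was 0.12 after the GC correction.

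Of 14 regulators of mitochondrial biogenesis, 13 were matched and 12 tested, and by the same measure 1 was higher (8.07% of all genes) and 2 were lower (13.6%). Polrmt, the mitochondrial RNA polymerase, had 17.9 and 20.3 FPKM in Csk(f/f), against 13.1, 14.8 and 11.9 FPKM in Csk(+/+) (limma adjusted p = 0.178). Tfam, which packages mitochondrial DNA and starts its transcription, had 10.4 and 11.8 FPKM in Csk(f/f), against 17.0, 16.5 and 13.96 FPKM in Csk(+/+) (limma adjusted p = 0.190). Gabpa, the DNA-binding subunit of GABP, had 7.49 and 5.36 FPKM in Csk(f/f), against 10.4, 8.84 and 10.9 FPKM in Csk(+/+) (limma adjusted p = 0.186). After the GC correction the log2 fold changes of these 3 were 0.17, -0.16 and -0.13.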
